A study of Mus musculus with 4 samples.

Results

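The 10 genes described here serve the uptake of glucose, its breakdown to lactate and the response of cells to low oxygen. They are *Slc2a1*, *Hk2*, *Pfkp*, *Aldoa*, *Pgk1*, *Ldha*, *Pdk1*, *Vegfa*, *Bnip3* and *Egln3*. They were chosen by name, and all 10 were found among the 24391 gene symbols of the count table. All 10 also passed the filter on low counts that left 13668 genes for testing. No library was labelled with low oxygen, so the name of the group rests on what the genes are known to do. RNA-seq was performed on 2 wild-type (WT) and 2 *Phf2* KO libraries of primary mouse embryonic fibroblasts (MEFs), taken from E13.5 embryos and arrested in quiescence. *Phf2* encodes a PHD finger protein that reads methylated histone H3, and the study asked how transcription differs without it. By the labels, all 4 libraries are *Phf2* flox/flox, ERCre/+, with CreERT2 expressed from the Rosa26 locus. Tamoxifen is named for the *Phf2* KO libraries alone, and the WT libraries are described as without it. The treatment protocol gives 0.5 µM 4-hydroxytamoxifen (4-OHT) for 7 days in Opti-MEM with 2% charcoal-treated serum, in the same words for every library. The vehicle of the WT cells is not given in the sources used here. Loss of Phf2, activity of Cre and exposure to 4-OHT therefore cannot be told apart.

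Glycolysis converts glucose to pyruvate in the cytosol. Pyruvate then either enters mitochondria through a carrier and is oxidised, or is reduced to lactate by lactate dehydrogenase. When oxygen falls, hypoxia-inducible factor (HIF) escapes the prolyl hydroxylases and the ubiquitin ligase subunit Vhl that otherwise lead to its destruction. HIF pairs with Arnt, binds DNA at sites with the core ACGTG or GCGTG, and raises glucose transporters, glycolytic enzymes and Vegfa, a growth factor for blood vessels.

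The promoters of 3 members are shown with the ACGTG form of the HIF core in capitals, on either strand, because these are the members whose levels the results turn on or that hold most matches. *Slc2a1* is the member with the largest difference between the groups, *Hk2* the one with the largest difference between replicate numbers, and *Ldha* the one with the most matches. Sequences are from RefSeq, on GRCm38.p6, and run from 250 bases before the start of transcription to 50 bases after it. The 3 windows are chr4:119108495-119108794 on the plus strand, chr6:82774405-82774704 on the minus strand and chr7:46845554-46845853 on the plus strand.
Slc2a1: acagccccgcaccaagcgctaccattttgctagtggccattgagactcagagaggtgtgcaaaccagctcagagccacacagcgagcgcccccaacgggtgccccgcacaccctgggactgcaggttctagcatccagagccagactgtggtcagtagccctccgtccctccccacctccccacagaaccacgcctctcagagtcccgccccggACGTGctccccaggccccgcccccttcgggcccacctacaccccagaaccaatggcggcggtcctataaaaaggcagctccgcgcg
Hk2: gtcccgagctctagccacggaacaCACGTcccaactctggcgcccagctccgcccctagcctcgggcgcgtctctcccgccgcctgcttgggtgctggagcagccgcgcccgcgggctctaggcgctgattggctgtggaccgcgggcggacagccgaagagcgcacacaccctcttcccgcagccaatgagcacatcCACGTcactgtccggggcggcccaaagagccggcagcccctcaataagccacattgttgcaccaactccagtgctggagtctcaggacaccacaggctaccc
Ldha: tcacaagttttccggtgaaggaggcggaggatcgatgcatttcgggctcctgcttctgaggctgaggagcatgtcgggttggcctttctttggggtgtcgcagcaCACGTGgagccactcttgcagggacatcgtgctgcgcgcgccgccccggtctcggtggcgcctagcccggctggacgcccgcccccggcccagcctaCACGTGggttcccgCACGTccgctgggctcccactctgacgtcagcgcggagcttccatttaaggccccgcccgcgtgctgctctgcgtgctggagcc
The *Slc2a1* window held 1 match, which begins 36 bases before the start. The *Hk2* window held 2, and the *Ldha* window, the first of its 2 in the table, held 5, of which 2 pairs overlap because CACGTG reads the same on both strands. Of the 10 genes, 8 had ACGTG in at least 1 of their windows, and *Pfkp* and *Pdk1* had none. By window, 9 of 15 held it, beside 19.6% of all 32851 windows of this length, and 2 of the 9 are overlapping windows of *Aldoa* that hold the same match. The GCGTG form was in at least 1 window of 6 of the 10 genes, *Pfkp* and *Pdk1* included, and in 7 of 15 windows, beside 32.4% of all windows. A match of these letters is a description of the sequence and not a measured binding site.

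*Phf2* itself had 3244 and 3680 counts in WT against 1454 and 2158 in *Phf2* KO, so that both *Phf2* KO libraries lay below both WT libraries. After scaling, its mean level was 0.579-fold that of WT, a log2 fold change of -0.79 (SE 0.14). Its adjusted p was 0.999 on genotype alone and 7.67e-19 with the replicate number as a block, both in edgeR, and 0.00384 in DESeq2 on genotype alone. The count covers the whole gene, so any exons that a deletion leaves in place would be included. What made up the remaining counts was not tested. The libraries held between 21094743 and 26094268 counts, and the detection limit, set at 3 counts, came to 0.115 to 0.142 CPM (counts scaled to the library size). *Xist*, the RNA that coats the silent X chromosome, was counted 10042 times in WT replicate 1 and 8336 times in *Phf2* KO replicate 1, and at most 12 times in each replicate 2. The Y-linked gene *Ddx3y* was counted at most 10 times in each replicate 1, and 1271 and 1295 times in the replicates 2 of WT and *Phf2* KO. In both groups these counts make replicate 1 female and replicate 2 male, and sex cannot be told apart from the replicate number. Fibroblast markers were abundant in every library, with 12 of 12 tested and a summed level between 76315 and 91891 CPM. In both groups, all 16 macrophage markers stood higher in replicate 1 than in replicate 2. Their summed level was 4139 CPM in replicate 1 and 905.1 CPM in replicate 2 of WT, and 4700 against 1423 CPM in *Phf2* KO. Of the 8 endothelial markers, *Tie1* and *Cldn5* were at 0 in every library, and the sum of all 8 lay between 9.53 and 22.1 CPM. In bulk RNA, fewer cells of a type and less RNA per cell cannot be told apart. Because the replicate numbers go with sex and with macrophage markers, the ratio within each number and the fit with the number as a block are given beside the fit on genotype alone.

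None of the 10 genes passed the test on genotype alone, for which edgeR's quasi-likelihood F-test was run and p was adjusted over all genes by Benjamini-Hochberg, at a threshold of 0.1. One member, *Slc2a1*, had an unadjusted p under 0.05 in that test and was higher. At that p, 211 of all 13668 genes were higher and 365 lower. DESeq2 and limma-voom on genotype alone called none of the 10 genes either. Over all 13668 genes edgeR's test on genotype alone called 1, or 0.00732%. That gene was *Dkk2*, a secreted Wnt antagonist, named after its value was seen. The median log2 fold change (*Phf2* KO over WT) of the 10 genes was 0.15, with 8 of 10 above 0. Over all genes tested the median was 0.01, with 7003 of 13668 above 0. With the replicate number as a block, *Slc2a1* was called higher and no other member was called, where 5.77% of all genes were called higher and 5.2% lower. That fit leaves 1 residual degree of freedom among the 4 libraries, so a gene's spread is drawn mostly from that of the other genes.

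*Slc2a1* encodes Glut1, the main glucose transporter of fibroblasts. It lies on mm9 at chr4:118781316-118809935, has 10 exons in its longest coding transcript, and overlaps *Gm12867*, *Gm12868* and *Mir1957* in the annotation, with which it may share reads. In WT, 3909 counts were found in replicate 1 and 5982 in replicate 2, and in *Phf2* KO 5933 and 8524, in the same order. Scaled to a common library size (normalized CPM), these were 162.2 and 230.5 in WT against 286.3 and 354.6 in *Phf2* KO. Both *Phf2* KO libraries lay above both WT libraries, and within each group replicate 2 was the higher. The mean was 196.4 ± 48.3 CPM in WT and 320.5 ± 48.3 CPM in *Phf2* KO (SD, n = 2 each), a ratio of 1.63. The log2 fold change was 0.71 (SE 0.21, 95% interval 0.14 to 1.27), with an adjusted p = 0.999 by edgeR's quasi-likelihood test. Fitted with the block, it was 0.72 (SE 0.086, 95% interval 0.55 to 0.89), with an adjusted p = 3.02e-14 by the same tool. The log2 ratio was 0.82 within replicates 1 and 0.62 within replicates 2. The difference was thus present in both replicate numbers, and close in size to the fitted value. Among the 11556 tested genes that averaged 50 counts or more, 23, itself included, had both ratios at least as large as the smaller ratio of *Slc2a1*, and among all 13668 tested genes 102 had. On genotype alone its adjusted p was 0.201 in DESeq2 and 0.996 in limma-voom. Leaving out each library in turn gave log2 fold changes between 0.49 and 0.97.

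**Figure D1:**
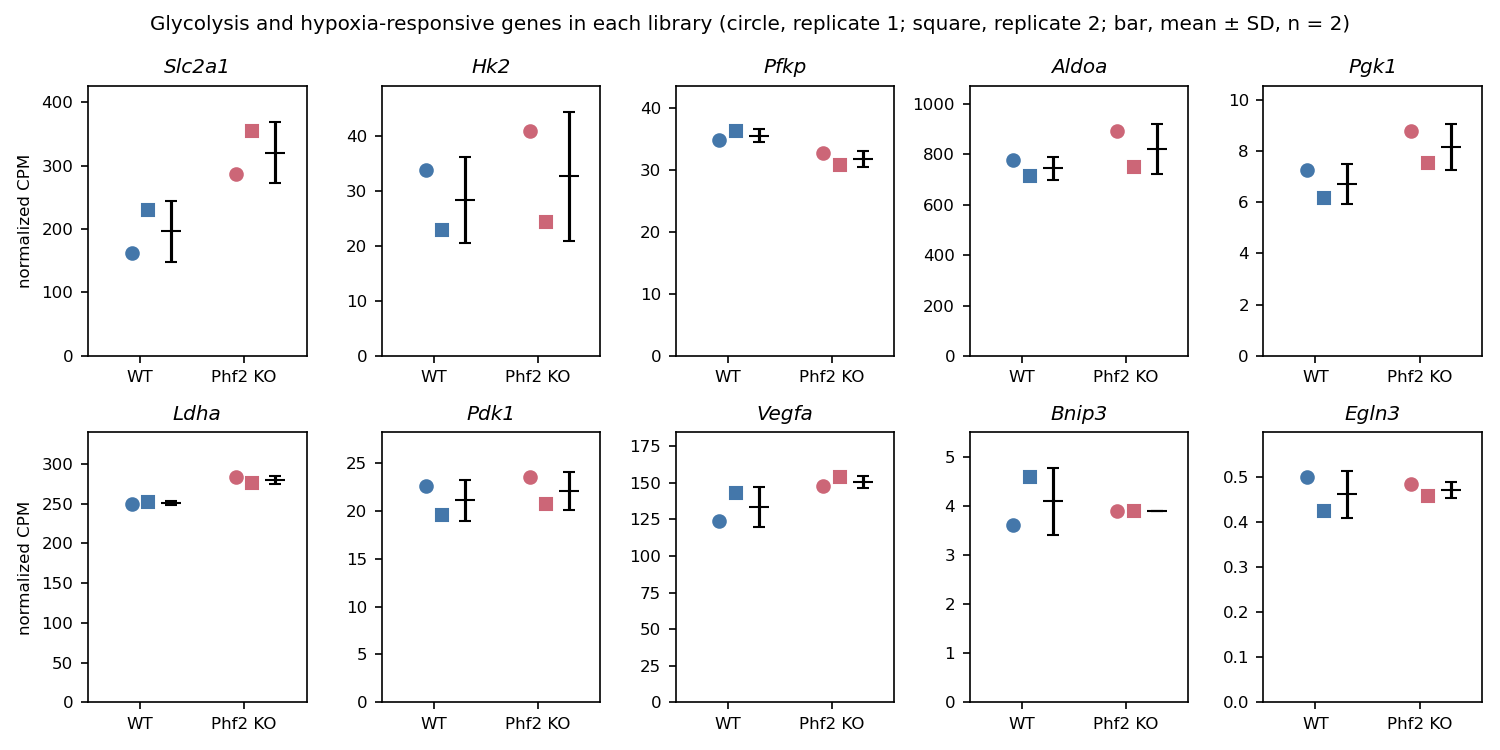
Normalized CPM (vertical axes, each from 0) of the 10 genes in the 2 WT and 2 *Phf2* KO libraries, with circles for replicate 1, squares for replicate 2 and bars for the mean ± SD. *Slc2a1* lies at 162.2 and 230.5 CPM in WT and at 286.3 and 354.6 CPM in *Phf2* KO, whereas the groups of *Hk2* overlap.

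The enzymes at the start of glycolysis showed no called difference. *Hk2* encodes hexokinase 2, which traps glucose in the cell by phosphorylating it, and lies on mm9 at chr6:82675019-82724448. It had 815 and 591 counts in WT against 846 and 585 in *Phf2* KO, or 33.8 and 22.8 CPM against 40.8 and 24.3 CPM. The groups overlapped, and in both of them replicate 1 was the higher library. The log2 fold change was 0.20 (SE 0.32, 95% interval -0.65 to 1.06). *Pfkp*, the platelet isoform of phosphofructokinase at the committing step of glycolysis, had 838 and 941 counts in WT against 677 and 740 in *Phf2* KO. After scaling, 34.8 and 36.3 CPM in WT stood against 32.7 and 30.8 CPM in *Phf2* KO, so that both *Phf2* KO libraries were below both WT libraries. It was the only member with this order, and its log2 fold change was -0.16 (SE 0.096, 95% interval -0.42 to 0.09). In the annotation *Pfkp*, at chr13:6579014-6648023, overlaps *Pitrm1*, and *Hk2* overlaps *Gm17034*.

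The later enzymes lie on mm9 at chr7:133938748-133944265 (*Aldoa*), chrX:103382439-103399038 (*Pgk1*) and chr7:54096845-54110997 (*Ldha*), and none was called. *Aldoa*, aldolase A, which splits fructose bisphosphate, was the most abundant member, with 777.9 and 712.8 CPM in WT and 893.1 and 750.9 CPM in *Phf2* KO. *Phf2* KO replicate 2 lay between the WT libraries, and the log2 fold change was 0.14 (SE 0.13, 95% interval -0.20 to 0.48). *Pgk1* encodes phosphoglycerate kinase 1, which makes ATP in the pathway. It had 175 and 160 counts in WT against 182 and 181 in *Phf2* KO, or 7.26 and 6.17 CPM against 8.78 and 7.53 CPM. Both *Phf2* KO libraries were above both WT libraries, with a log2 fold change of 0.28 (SE 0.18, 95% interval -0.21 to 0.77). *Ldha*, the lactate dehydrogenase subunit that favours lactate formation, stood at 249.4 and 252.7 CPM in WT and 282.9 and 276.0 CPM in *Phf2* KO. Its replicates lay close together in each group, and the groups did not overlap. The mean was 251.0 ± 2.28 CPM in WT and 279.4 ± 4.85 CPM in *Phf2* KO (SD, n = 2 each), with a log2 fold change of 0.15 (SE 0.082, 95% interval -0.06 to 0.37). With the replicate block the adjusted p of *Ldha* was 0.314 by edgeR's quasi-likelihood test.

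*Pdk1*, a kinase that shuts off pyruvate dehydrogenase and so holds pyruvate back from the citric acid cycle, lies at chr2:71711281-71741915 and stood at 22.6 and 19.6 CPM in WT and 23.5 and 20.7 CPM in *Phf2* KO. These values interleaved, and the log2 fold change was 0.06 (SE 0.13, 95% interval -0.29 to 0.42).

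Of the 3 remaining hypoxia-responsive members, none had a called difference. They lie on mm9 at chr17:46153942-46169326 (*Vegfa*), chr7:146082519-146101202 (*Bnip3*) and chr12:55279968-55304847 (*Egln3*). *Vegfa* had 2980 and 3707 counts in WT against 3059 and 3692 in *Phf2* KO, which is 123.6 and 142.9 CPM against 147.6 and 153.6 CPM. Both *Phf2* KO libraries were above both WT libraries after scaling. The log2 fold change was 0.18 (SE 0.10, 95% interval -0.10 to 0.45), and with the block 0.18 (SE 0.083), with an adjusted p = 0.190 by edgeR's quasi-likelihood test. *Bnip3*, which marks mitochondria for removal by autophagy, had 87 and 119 counts in WT against 81 and 94 in *Phf2* KO. Both *Phf2* KO libraries, at 3.91 CPM, lay between WT replicate 1 at 3.61 CPM and WT replicate 2 at 4.59 CPM. *Egln3*, a prolyl hydroxylase that acts on HIF and is itself induced by it, was counted between 10 and 12 times in each library. Its level, between 0.424 and 0.498 CPM, was above the limit of detection, but the interval of its log2 fold change, from -1.07 to 1.13, was the widest of the 10 genes.

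**Figure D2:**
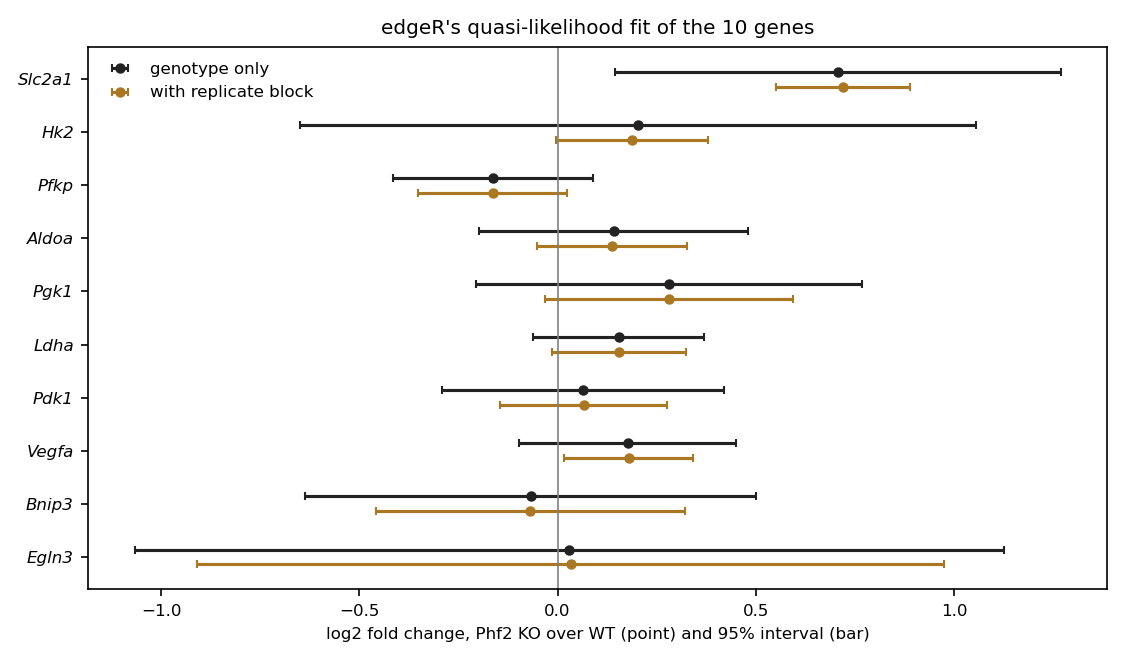
Log2 fold change of each of the 10 genes, *Phf2* KO over WT (horizontal axis), with the point for the fitted value and the bar for its 95% interval, from edgeR's quasi-likelihood fit on genotype only (black) and with the replicate block (brown). The black interval excludes 0 for *Slc2a1* alone (0.14 to 1.27), and the brown intervals exclude 0 for *Slc2a1* (0.55 to 0.89) and *Vegfa*, of which only *Slc2a1* was called after adjustment.

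Counted by library, both *Phf2* KO libraries lay above both WT libraries for 4 members, *Slc2a1*, *Pgk1*, *Ldha* and *Vegfa*, and below them for 1, *Pfkp*. Over all genes tested these shares were 15.5% and 18%. Within both replicate numbers, 7 of 10 were higher in *Phf2* KO, 1 was lower, and *Bnip3* and *Egln3* went opposite ways. Over all genes tested 32.6% were higher and 30.2% lower in both. Without *Slc2a1*, the log2 fold changes of the other 9 members lay between -0.16 and 0.28. The summed level of these 9 was 1254 and 1198 CPM in WT and 1434 and 1268 CPM in *Phf2* KO. *Aldoa* made up most of each sum, with 777.9 and 712.8 CPM in WT and 893.1 and 750.9 CPM in *Phf2* KO.

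Levels of 2 members also differed between the replicate numbers. Between replicates 1 and 2, with genotype in the fit, edgeR's quasi-likelihood test called *Hk2* higher in replicate 1 by 0.66 log2 units (SE 0.098, adjusted p = 4.68e-10). *Slc2a1* was lower in replicate 1, with a log2 difference of -0.41 (SE 0.086) and an adjusted p = 2.94e-05 in the same edgeR test. The other 8 members were not called, but *Aldoa* was called higher in replicate 1 when library size alone was used or genes under 1 CPM were removed (adjusted p = 0.0720 in both, by edgeR). Over all genes, 13.6% were called higher and 12.6% lower in replicate 1. Macrophage markers were higher in replicate 1 too, by a median of 2.01 log2 units, and their part in the levels of *Hk2* and *Slc2a1* was not tested.

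Levels of different genes were compared per length, as normalized CPM per kilobase of the longest coding transcript. In WT, *Aldoa* stood highest, with a mean of 481.2, followed by *Ldha* with 142.2, *Slc2a1* with 75.3 and *Vegfa* with 37.8. *Pfkp* followed with 8.57, *Hk2* with 5.13, *Pdk1* with 4.07, *Pgk1* with 3.68, *Bnip3* with 2.33 and *Egln3* with 0.173. The WT libraries of neighbours in this order did not overlap, apart from *Hk2* with *Pdk1* and *Pdk1* with *Pgk1*.

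*Pgk1*, low in this order, has many copies of its sequence in the genome, and their part in its level was not tested. Every window of 50 bases of the longest coding transcript of each gene was searched in mm9 on both strands. Of the 1776 windows of *Pgk1*, 1650 (92.9%), and all windows of its coding part, were also found outside the gene. The share was 61.7% for *Bnip3*, 29.1% for *Ldha* and 14.8% for *Aldoa*, and under 1% for *Vegfa* and *Pdk1*. *Slc2a1*, *Hk2*, *Pfkp* and *Egln3* had no such window. Whether a read with several places was counted is not given in the sources used here. If all counts of *Pgk1* came from its 126 unique windows, its level would lie between 48.9 and 69.7 CPM per kilobase of such windows. For *Bnip3*, with 654 unique windows, this level would lie between 5.52 and 7.01. The 3 other glycolytic enzymes with over 50% of windows shared were likewise low. *Pfkfb1* (WT mean 0.758 CPM per kilobase), *Aldoc* (1.79), *Pfkfb4* (3.69), *Pgam2* (4.33) and *Eno3* (5.997) were low too, with no shared window. *Pfkm* (25.4) and *Hk3* (25.2), also without a shared window, were higher. The enzymes of both kinds are named here after their values were seen. *Gapdh*, with 85.6% of windows shared, had a WT mean of 6.70 CPM per kilobase, *Pgam1* (91.9%) 1.94 and *Eno1* (72.2%) 0.188. Per kilobase of unique windows, *Gapdh* would lie between 37.7 and 54.5 and *Pgam1* between 22.4 and 30.6. *Eno1* would remain low, between 0.439 and 0.754. *Pkm*, the pyruvate kinase gene, had 41.4% of windows shared and a WT mean of 261.2 CPM per kilobase. The low levels of genes with many copies are therefore uncertain as levels of the genes, and the group difference of *Pgk1* rests on few counts.

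**Figure D3:**
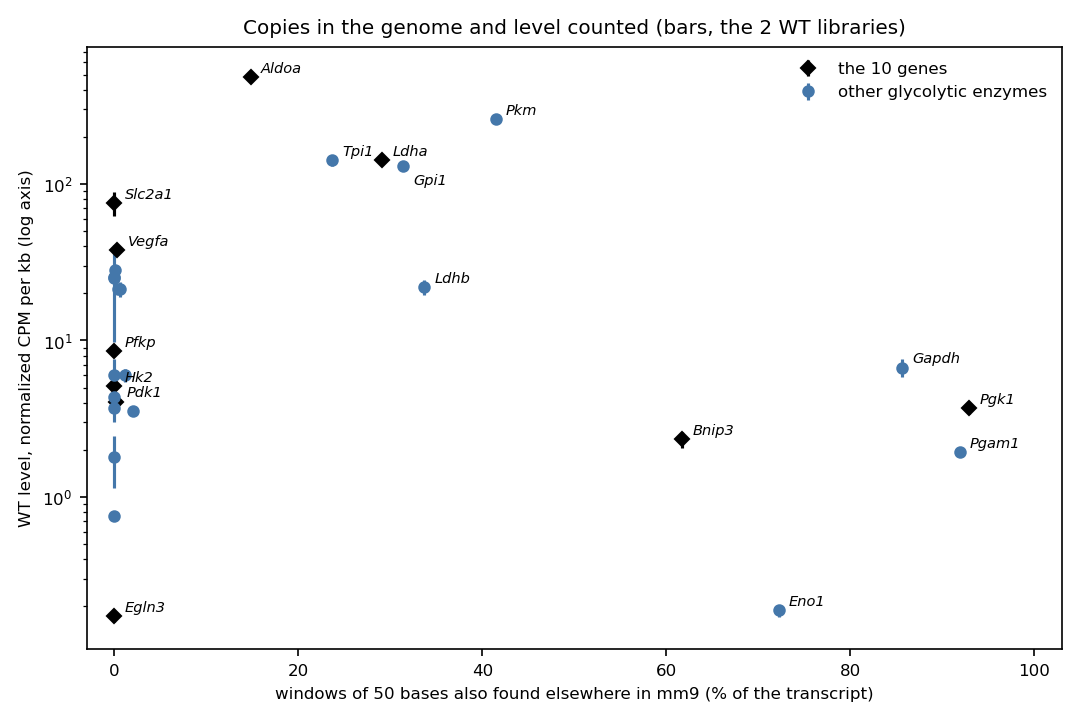
Share of 50-base windows of a transcript also found elsewhere in mm9 (horizontal axis, percent) against the mean WT level in normalized CPM per kilobase (vertical log axis), for the 10 genes (black diamonds) and 19 other glycolytic enzymes (blue circles), with bars from the lower to the higher WT library. *Pgk1* at 92.9%, *Pgam1* at 91.9% and *Gapdh* at 85.6% lie at the right and low, with WT means of 3.68, 1.94 and 6.70.

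The rest of the pathway was described with 5 further lists, of which 86 genes were tested. On genotype alone edgeR's quasi-likelihood test called none of them. In that test 4 had an unadjusted p under 0.05 and were higher, and 5 were lower, beside 211 and 365 of all 13668 genes. DESeq2 called 2, limma-voom called 0, and with the replicate block edgeR called 12 higher and 6 lower, beside 5.77% and 5.2% of all genes. With the same block DESeq2 called 6 pathway genes and limma-voom 16. In what follows, genes of these lists are called higher or lower by the blocked fit, and none of them passed on genotype alone in edgeR or limma-voom.

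Among the regulators of HIF, 0 of 15 genes tested were higher and 2 were lower with the block, beside 5.77% and 5.2% of all genes. The list's median log2 fold change on genotype alone was -0.06. *Hif1a*, the oxygen-regulated subunit of HIF-1, had 4170 and 3695 counts in WT against 2376 and 2749 in *Phf2* KO. In normalized CPM these were 173.0 and 142.4 in WT against 114.7 and 114.4 in *Phf2* KO, so the groups did not overlap. The log2 fold change of *Hif1a* was -0.46 (SE 0.12), and with the block -0.45 (SE 0.083), with an adjusted p = 3.95e-06 by edgeR's quasi-likelihood test. The direction of *Hif1a* transcript was thus opposite to that of *Slc2a1*, in both replicate numbers. *Arnt2*, a partner subunit, was also lower with the block (log2 fold change -0.26, SE 0.087, adjusted p = 0.0382 by edgeR), a call that DESeq2 with the same block did not make (adjusted p = 0.492). *Epas1*, which encodes HIF-2α, stood at 35.0 and 35.4 CPM in WT and 33.7 and 38.0 CPM in *Phf2* KO. *Vhl* stood at 31.1 and 33.4 CPM in WT and 31.0 and 30.9 CPM in *Phf2* KO. The prolyl hydroxylase genes *Egln1* and *Egln2* had blocked log2 fold changes of 0.16 (SE 0.084) and 0.00 (SE 0.083). None of these 4 was called in either fit.

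Of 33 other hypoxia-responsive genes tested, 7 were higher and 3 lower with the block in edgeR, beside 5.77% and 5.2% of all genes. With the same block DESeq2 called 5 genes of this list and limma-voom 10. The median log2 fold change on genotype alone was 0.10. Of the lower genes, *Plod2* and *Loxl2* act on collagen. *Plod2*, a collagen lysyl hydroxylase, had 4617 and 5246 counts in WT against 2151 and 3523 in *Phf2* KO, with a blocked log2 fold change of -0.67 (SE 0.084). *Loxl2*, a lysyl oxidase that crosslinks collagen, had 18653 and 17805 counts against 10186 and 12793 (-0.51, SE 0.094). For both genes the *Phf2* KO libraries lay below the WT libraries after scaling. Of the 12 fibroblast markers, 3 were called lower and 0 higher with the block, beside 5.2% and 5.77% of all genes. In both replicate numbers 7 of the 12 lay lower, beside 30.2% of all genes. The part of fibroblast markers in the levels of these collagen enzymes was not tested. The higher genes with the largest blocked change were *Pdgfb*, *Cxcl12* and *Bhlhe41*. *Pdgfb*, a platelet-derived growth factor chain, had 265 and 135 counts in WT against 348 and 182 in *Phf2* KO (0.58, SE 0.15). *Cxcl12*, a chemokine made by stromal cells, had 8947 and 17143 counts against 10492 and 20110 (0.39, SE 0.093). *Bhlhe41*, a transcriptional repressor, had 1390 and 932 counts against 1533 and 1128 (0.37, SE 0.088). For these 3 genes the groups overlapped, since each differed more between the replicate numbers than between the groups. The other 4 were *Adm*, *Ddit4*, *Angpt2* and *Tfrc*, named after their values were seen. DESeq2 with the same block did not call *Ddit4* (adjusted p = 0.253) or *Angpt2* (adjusted p = 0.384), and gave *Pdgfb* no adjusted p. *Adm*, the adrenomedullin gene, was one of the 2 pathway genes that DESeq2 called on genotype alone (adjusted p = 0.0681), and stood at 173.3 and 185.9 CPM in WT and 230.2 and 232.5 CPM in *Phf2* KO. *Loxl2* was the other (adjusted p = 0.0195 by DESeq2).

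Of 9 other transporters of glucose and lactate tested, 1 was higher and 1 lower with the block in edgeR, beside 5.77% and 5.2% of all genes. The median log2 fold change on genotype alone was -0.41, which is the value of *Slc16a1*. The genes below it, *Slc2a12*, *Slc2a3*, *Slc2a6* and *Slc16a7*, had at most 90 counts in a library. Above it lay *Slc16a3* (-0.07), *Slc2a10* (-0.06), *Slc2a8* (0.15) and *Slc2a4* (1.16). These genes other than *Slc16a1* and *Slc2a4* are named after their values were seen. *Slc2a4*, the insulin-responsive transporter Glut4, had 13 and 44 counts in WT against 40 and 74 in *Phf2* KO, a blocked log2 fold change of 1.19 (SE 0.28). Its level was 0.539 and 1.70 CPM in WT and 1.93 and 3.08 CPM in *Phf2* KO, so this difference rests on few counts. *Slc16a1*, which encodes the lactate and pyruvate carrier Mct1, had 879 and 780 counts in WT against 555 and 563 in *Phf2* KO. Its blocked log2 fold change was -0.40 (SE 0.099), with an adjusted p = 0.00162 by edgeR's quasi-likelihood test. DESeq2 with the same block did not call *Slc16a1* (adjusted p = 0.250) and gave *Slc2a4* no adjusted p. Both *Phf2* KO libraries of *Slc16a1* lay below both WT libraries after scaling.

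Of 18 other glycolytic enzymes tested, 2 were higher and 0 lower with the block in edgeR, beside 5.77% and 5.2% of all genes. With the same block limma-voom called neither *Hk3* (adjusted p = 0.132) nor *Eno3* (0.110), and DESeq2 did not call *Hk3* (0.520) and gave *Eno3* no adjusted p. The median log2 fold change on genotype alone was 0.05. *Hk3*, the hexokinase of myeloid cells, had 3150 and 815 counts in WT against 2941 and 961 in *Phf2* KO. It was thus higher in replicate 1, as macrophage markers were. Of those 16 markers, 8 were called higher in *Phf2* KO with the block, as *Hk3* was, and 0 lower, beside 5.77% and 5.2% of all genes. The groups overlapped for all 16. Named after their values were seen, *Adgre1* (-0.05), *Cd14* (-0.19), *Fcgr1* (-0.14) and *Itgam* (-0.02) had blocked log2 fold changes below 0. The part of macrophages in *Hk3* was not tested. *Eno3*, the muscle enolase, had 167 and 307 counts against 196 and 350.

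Of 11 genes for the entry of pyruvate into mitochondria, 2 were higher and 0 lower with the block, beside 5.77% and 5.2% of all genes. Both of the higher genes form the mitochondrial pyruvate carrier. *Mpc1* had 274 and 366 counts in WT against 423 and 400 in *Phf2* KO, and *Mpc2* had 724 and 907 against 890 and 1010. Their blocked log2 fold changes were 0.53 (SE 0.12) and 0.39 (SE 0.093), with both *Phf2* KO libraries above both WT libraries after scaling. DESeq2 with the same block called neither (adjusted p = 0.254 and 0.176). The list's median on genotype alone was -0.02. Of the *Mpc1* windows 73.5% were also found elsewhere in mm9, which makes its level uncertain.

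**Figure D4:**
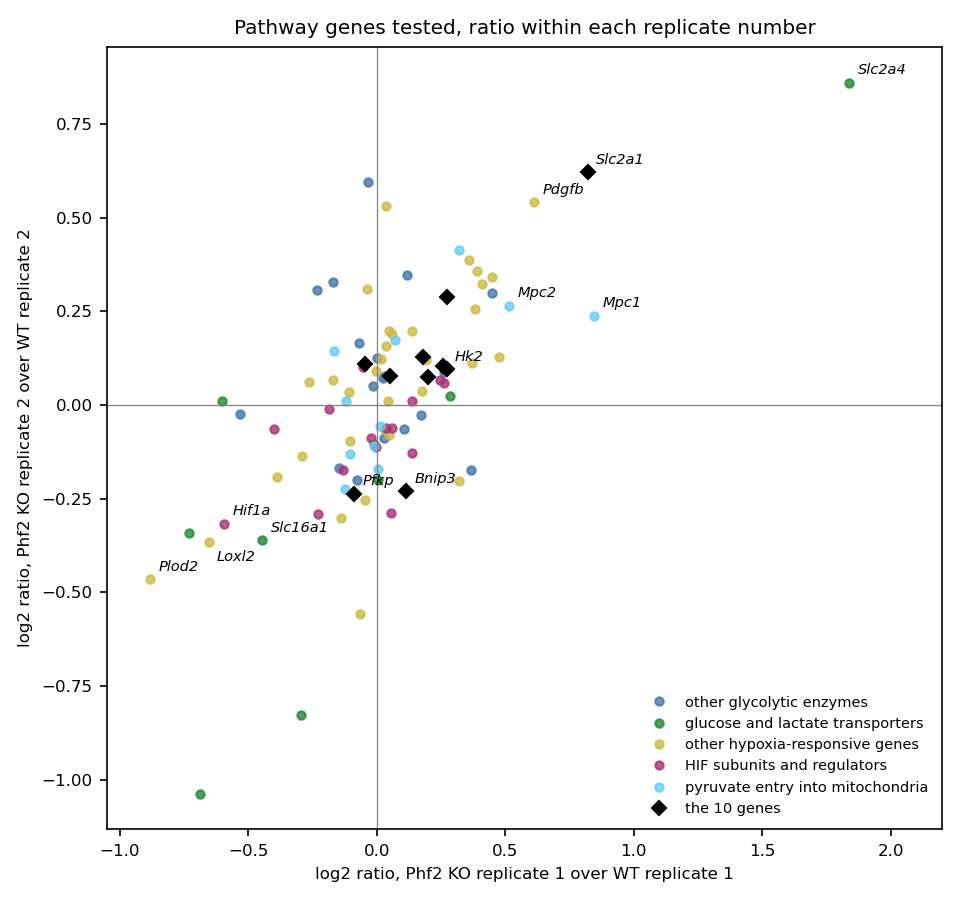
Log2 ratio of *Phf2* KO over WT within replicates 1 (horizontal axis) against that within replicates 2 (vertical axis), for the 10 genes (black diamonds) and the tested genes of 5 pathway lists (coloured circles). *Slc2a1*, at 0.82 and 0.62, stands apart from the other 9 members, whose ratios lie nearer to 0, and *Hif1a*, *Plod2* and *Loxl2* lie at the lower left.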

How the data were processed

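By the labels and the paper, adapters were cut with Trim Galore, rRNA reads were taken out through bowtie2, STAR placed the remaining reads on mm9, and featureCounts summed them by gene. The authors deposited raw counts for 24391 gene symbols. Versions, the annotation release and the treatment of reads with several places are not given in the sources used here. The authors' table of their own comparison (DESeq2 fold changes and p-values) was not used. Every column of per-sample counts was mapped to a sample by its name.

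The tests used edgeR 4.0.16 in R 4.3.3 (filterByExpr, TMM, glmQLFit and glmQLFTest on genotype, Benjamini-Hochberg adjustment over 13668 genes, called at an adjusted p under 0.1). The replicate number as a block, DESeq2 1.42.0, limma-voom (limma 3.58.1), other scalings, filters and thresholds, and each library left out were alternatives, and the code was tested on simulated data. Windows were searched in NCBIM37 (mm9) with GENCODE transcripts in Python 3.11.15. Promoters were matched by symbol in a RefSeq table, which held all 10 members.

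The members and lists were chosen with earlier results of these data known. Named are the members, *Phf2*, *Xist*, *Ddx3y*, *Hif1a*, *Epas1*, *Vhl*, *Egln1*, *Egln2*, and per list up to 3 genes in each direction with the largest change among those called with the block; others are said to be chosen after their values were seen. A gene that this rule names is not reported here. The labels do not name the embryos of each library. The 2 libraries of a group differ in sex by *Xist* and *Ddx3y*, so they did not share an embryo. On genotype alone, p-values measure the spread between such libraries. The blocked fit takes out the difference between replicate numbers that both groups share, so its p-values measure only the spread left after that. Intervals on genotype alone cover counting error and the spread of 2 libraries a group, and blocked intervals leave out the shared difference between replicate numbers. The limit of detection is a fixed 3 counts and covers neither.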

Additional observations from a re-analysis of the deposited data

How the results depend on the processing

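With 2 libraries a group, the 95% interval of the log2 fold change on genotype alone included 0 for 9 of the 10 genes. No member was called there with RLE, library size alone, either other filter, a threshold of 0.05, DESeq2, limma-voom or any library left out. Only a replicate block gave a call: 1 member, *Slc2a1*, in edgeR with the replicate block, and, added after the data were seen, 1 in DESeq2 and 1 in limma-voom with it (log2 fold changes of 0.72, 0.73 and 0.72). The labels do not say what a replicate number shares. The replicate differences of WT and *Phf2* KO correlated across 11553 genes (Pearson's r = 0.850), and the block changed no other call among the 10 genes. Over all genes, 1 call on genotype alone became 66 in DESeq2 (10 higher, 56 lower), 0 in limma-voom (223 higher and 352 lower at an unadjusted p under 0.05), 0 at a threshold of 0.05 and 0 to 0 with a library left out. With the replicate block the calls were 1500 in edgeR (789 higher, 711 lower), 306 in DESeq2 (187 and 119) and 1371 in limma-voom (725 and 646). Of the pathway genes, 0 called became 2 in DESeq2, and 18 in edgeR, 6 in DESeq2 and 16 in limma-voom with the replicate block. Between replicates 1 and 2, 3580 genes were called by edgeR and 1380 by DESeq2. With a library left out, the log2 fold change turned in sign for 4 members that were not called: *Hk2* (-0.22 to 0.53), *Pdk1* (-0.051 to 0.18), *Bnip3* (-0.22 to 0.10) and *Egln3* (-0.10 to 0.16). Without a sign change, *Aldoa* moved between 0.0097 and 0.26, *Vegfa* between 0.088 and 0.27 and *Pgk1* between 0.15 and 0.41. The cause was not tested. *Egln3* has no value under the filter of at least 1 CPM in 2 libraries, which removes it.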
